A study of Mus musculus with 24 samples.

Results

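Flt3, its ligand gene Flt3l and the related receptor genes Kit and Csf1r were followed in blood progenitors of mice that carry an activated Flt3, a deletion in Ern1, or both. The 4 genes were taken by symbol from per-library expression tables of 23991 gene symbols, and all 4 were found in each of the 24 libraries. Flt3, Kit and Csf1r encode class III receptor tyrosine kinases, cell surface receptors that pair up when a ligand binds and then phosphorylate each other to start STAT, RAS and PI3 kinase signalling. FLT3 acts in multipotent and lymphoid-primed progenitors and in the dendritic lineage. KIT is the receptor for stem cell factor and serves stem cells, early progenitors and mast cells, and CSF1R is the receptor for macrophage colony-stimulating factor on monocytes and macrophages. An internal tandem duplication in the juxtamembrane part of FLT3 makes the kinase active without ligand, and it is a frequent mutation in acute myeloid leukaemia.

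RNA came from bone marrow cells of mice on a C57BL/6 background, sorted either as granulocyte-macrophage progenitors (GMP) or as Lin-Sca1+cKit+ cells (LSK), a gate rich in stem cells and multipotent progenitors. Each population was taken from 4 genotypes with 3 libraries each. The IRE1_KO_ITD mice were Ern1(fl/fl)-VavCre-Flt3-ITD, the ITD mice Flt3-ITD, the IRE1_KO mice Ern1(fl/fl)-VavCre, and the WT mice wild type. Vav-Cre is active in blood cells from their stem cells onward, so a floxed gene is cut in all blood lineages and not in GMP or LSK alone. Ern1 encodes IRE1α, a sensor of stress in the endoplasmic reticulum. The sources used here state neither age nor the number of ITD alleles. Libraries of a group carry replicate numbers, and the labels do not say whether they came from separate animals. The p-values therefore measure the spread between these libraries, which may be technical in part, or in whole among libraries of the same sex in a group. Levels are in FPKM, a count of sequenced fragments divided by transcript length and by the size of the library. Fold changes were taken between values of log2(FPKM + 1), a scale that makes changes of low genes look smaller. The words "rose" and "fell" stand only where a limma p, adjusted by the Benjamini-Hochberg method over all genes tested, was under 0.05. Errors of FPKM values are SD and errors of log2 differences are SE from the fit, with n = 3 libraries a group.

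On the mm10 (GRCm38) assembly, Flt3 lies on the minus strand of chromosome 5 from 147330741 to 147400489. An annotated antisense RNA, Gm26597, overlaps it and has no row in the files. Kit lies on the plus strand of the same chromosome from 75574916 to 75656722 with no annotated gene over it. Flt3l lies on the minus strand of chromosome 7 from 45129788 to 45136432, where the protein-coding model Gm45713 on the same strand overlaps it, so its reads could be split between both.

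The sequences before the start sites of Flt3 and Kit are shown because both genes lie on chromosome 5 and were the most abundant members in LSK. Flt3 was also the member whose level differed most between WT GMP and WT LSK. They come from RefSeq (GRCm38.p6), which held promoter entries for 3 of the 4 genes, and are written 5′ to 3′ on each gene's strand. Capitals mark the core GGAA of ETS factors such as PU.1 (TTCC when read on the other strand), the E-box CANNTG and the MYB core AACNG.
Flt3, chr5:147400490-147400739, minus strand: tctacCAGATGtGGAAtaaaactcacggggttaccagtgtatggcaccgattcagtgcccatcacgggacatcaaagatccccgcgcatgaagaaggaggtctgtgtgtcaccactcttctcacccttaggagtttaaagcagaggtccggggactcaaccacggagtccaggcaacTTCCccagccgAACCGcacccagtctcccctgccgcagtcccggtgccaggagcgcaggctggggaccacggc
Kit, chr5:75574737-75574915, plus strand: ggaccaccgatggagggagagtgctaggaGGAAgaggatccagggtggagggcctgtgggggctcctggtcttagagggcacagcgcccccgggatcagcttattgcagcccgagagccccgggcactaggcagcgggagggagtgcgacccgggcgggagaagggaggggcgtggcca
The Flt3 window held 2 ETS cores, 1 E-box and 1 MYB core, on either strand and with no overlap between them. Of 27025 promoter windows of the same length, 93.4% held an ETS core, 66.0% an E-box and 74.1% a MYB core, so such matches are common. In the Kit window, shortened to 179 bases because the last 71 bases fall in an annotated exon, there was 1 ETS core and neither of the other motifs. The GATA motif AGATAA, the RUNX motif TGTGGT, the STAT motif TTCNNNGAA, the XBP1 core ACGTG, the MEIS core TGACAG and the TATA box TATAAA, searched on both strands, had no match in either window. These are matches of letters in short windows, and binding of a factor was not measured.

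Checks of the libraries gave 1 result that went against its label. Ern1 stood higher, at 17.9 to 33.2 FPKM, in GMP libraries labelled with the Ern1 deletion, against 7.59 to 16 in those without it, and in LSK at 6.64 to 12.9 against 3.73 to 7.56 FPKM. The exons behind a gene-level value are not known, so the deletion is not checked by it, and libraries are named below by their labels. Socs2, which STAT5 induces, stood at 38.6 to 99.9 FPKM in GMP with ITD and at 0.197 to 1.24 in GMP without it, and at 224 to 294 against 7.81 to 18.4 FPKM in LSK. With WT LSK replicate 1 set to 1, the relative depth of the libraries, read from ratios of low values, spanned 0.922 to 1.29. The 12 LSK-like markers summed to 131 to 258 FPKM in GMP and 661.6 to 973 in LSK libraries, and the 9 GMP-like markers to 19122 to 32137 FPKM in GMP and 1117 to 3525 in LSK, although Hoxb5, an LSK-like marker, was listed at 0 in 2 of the 3 ITD LSK libraries. A 1ng tag stands in the headers of the 3 IRE1_KO LSK libraries alone. These libraries also stood apart in the share of Mir6236, at 0.175% to 0.904%. That share was 4.41% to 6.24% in the other 9 LSK libraries and 2.72% to 6.61% in GMP, and the cause was not tested. Genotype and tag cannot be told apart in the 3 tagged libraries. This holds for every comparison that uses these libraries, the difference of ITD effects in LSK included. Judged by Xist and Y-linked genes, each ITD library was from a female, and each group of the other genotypes held both sexes. Those groups thus came from more than 1 animal each. ITD LSK replicate 1 stood apart from replicates 2 and 3 in Csf1r, Flt3l and dendritic markers, and results that rest on it are given with and without it.

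**Figure D1:**
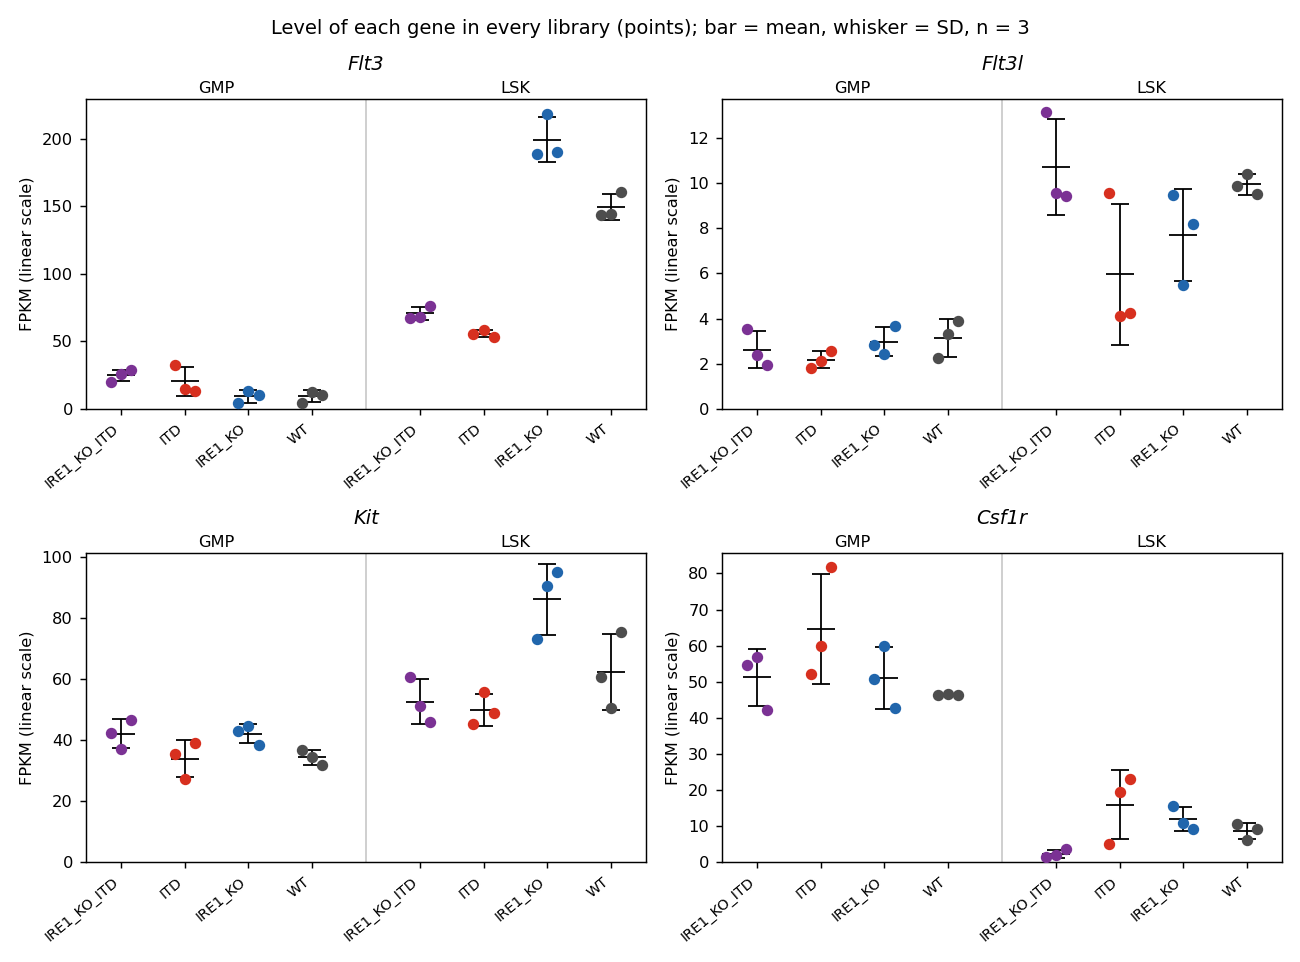
FPKM (linear scale) of Flt3, Flt3l, Kit and Csf1r in each of the 24 libraries, by population and genotype; points are libraries, bars means and whiskers SD (n = 3). Flt3 in LSK separates the 6 libraries with ITD, at 53.2 to 76.1 FPKM, from the 6 without it, at 144 to 219, and Csf1r is lowest in IRE1_KO_ITD LSK.

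The wild type cells set the baseline for the 4 genes. Flt3, Flt3l and Kit were lower and Csf1r was higher in WT GMP than in WT LSK, and 4 of 4 members passed the test, where 50.3% of the 12348 genes tested did. Flt3 was at 4.54, 12.8 and 10.5 FPKM in the WT GMP libraries, against 144, 145 and 161 in WT LSK. It was the member with the largest difference, with a log2 fold change of -3.97 ± 0.34 (limma adjusted p = 2.10e-08), or a mean 16.1 times higher in LSK. Flt3l was at 2.24, 3.30 and 3.91 FPKM in WT GMP, against 9.90, 10.4 and 9.53 in WT LSK (-1.42 ± 0.25, limma adjusted p = 0.000112). The groups did not overlap for either gene. Kit was at 36.8, 34.5 and 32.0 FPKM in WT GMP, against 60.9, 50.7 and 75.6 in WT LSK (-0.82 ± 0.15, limma adjusted p = 0.000178). The KIT protein is part of the LSK gate and is also used to sort GMP, so the Kit level of sorted cells is conditioned by the sort. Csf1r was at 46.3, 46.5 and 46.4 FPKM in WT GMP, against 10.7, 6.32 and 9.29 in WT LSK (2.31 ± 0.37, limma adjusted p = 3.76e-05). In these sorted populations fewer cells that express a gene and less RNA per cell cannot be told apart.

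The order of the receptors by length-scaled level differed between the populations. In WT GMP Csf1r ranked 2016 to 2052 among all symbols of a library, Kit 2455 to 2702 and Flt3 4987 to 7692. In WT LSK Flt3 ranked 562 to 640, Kit 1213 to 1763 and Csf1r 5710 to 7115. The ligand gene Flt3l stayed below the receptor in every group, with a Flt3 to Flt3l ratio of FPKM of 2.86 ± 0.931 in WT GMP and 15.1 ± 1.57 in WT LSK.

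Flt3 in LSK was lower in mice with the duplication, whether or not Ern1 was deleted. In ITD LSK it was at 55.2, 58.7 and 53.2 FPKM, against 144, 145 and 161 in WT LSK. All 3 ITD libraries lay below all 3 WT libraries, and Flt3 fell by 1.41 ± 0.09 on the log2 scale (limma adjusted p = 1.29e-05), a mean of 0.372 times that of WT. It was the 1 of 4 members that passed in this comparison, where 22.2% of 11955 genes did. In IRE1_KO_ITD LSK Flt3 was at 67.6, 68.2 and 76.1 FPKM, against 189, 219 and 191 in IRE1_KO LSK. Again the groups did not overlap, and Flt3 fell by 1.48 ± 0.09 (limma adjusted p = 4.84e-06), with 3 of 4 members and 31.3% of all genes past the test. The IRE1_KO libraries of this comparison carry the 1ng tag. The effect of the duplication with the Ern1 deletion minus that without it was -0.07 ± 0.12 (95% interval -0.34 to 0.19, limma adjusted p = 0.748), a difference that turned positive, to 0.04 and 0.07, with quantile normalization and with a median-ratio size factor. The row sums reads of the duplicated allele and of any normal allele, which a value per gene cannot separate.

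Marker lists of erythroid, B cell and lymphoid-primed cells also differed between LSK with and without the duplication. The 10 erythroid markers summed to 514 to 742 FPKM in IRE1_KO_ITD LSK, 231 to 703 in ITD, 1390 to 2603 in IRE1_KO and 829 to 1922 in WT, with no overlap between libraries with and without ITD. The 9 lymphoid-primed markers in the files summed to 124 to 174 FPKM in IRE1_KO_ITD LSK, 239.6 to 633 in ITD, 712 to 774 in IRE1_KO and 488 to 726 in WT, so that ITD and WT overlapped. The 9 B cell markers summed to 30.5 to 36.6 FPKM in IRE1_KO_ITD LSK, 41.6 to 89.5 in ITD, 219 to 267 in IRE1_KO and 156 to 310.3 in WT. In ITD against WT LSK 8 of 10 tested erythroid, 8 of 8 B cell and 6 of 8 lymphoid-primed markers fell, and in IRE1_KO_ITD against IRE1_KO LSK 9 of 10, 8 of 8 and 8 of 8, with 0 higher in any of these lists. Of all genes, 7.27% fell and 14.9% rose in the first comparison, and 19.6% fell and 11.7% rose in the second. In IRE1_KO_ITD against ITD LSK, where Flt3 was higher, 0 of 10 erythroid, 1 of 8 B cell and 3 of 8 lymphoid-primed markers fell and 0 rose. Of all genes 6.96% fell and 13.3% rose there. Of the LSK-like markers 6 of 11 tested fell in ITD against WT LSK and 4 of 11 in IRE1_KO_ITD against IRE1_KO LSK, with 0 higher. The part of these cells in the Flt3 result was not tested.

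The level of Flt3 in LSK was higher with the Ern1 deletion on either background, by less than the ITD effect. In IRE1_KO LSK all 3 libraries, at 189, 219 and 191 FPKM, lay above the 3 WT libraries, and Flt3 rose by 0.41 ± 0.09 (limma adjusted p = 0.00478). It was the 1 of 4 members past the test, where 23.7% of genes were. With a median-ratio size factor the value was 0.21 and did not pass (limma adjusted p = 0.0964). The median of all genes in this comparison was 0.14 as deposited and -0.03 with that scaling, and the 1ng tag lies on the same 3 libraries. In IRE1_KO_ITD LSK Flt3 was at 67.6 to 76.1 FPKM, against 53.2 to 58.7 in ITD LSK, with no overlap. Flt3 rose by 0.34 ± 0.09 there (limma adjusted p = 0.0199), and with Csf1r it was 1 of the 2 of 4 members past the test, where 20.2% of genes were. Without IRE1_KO_ITD replicate 3 or ITD replicate 3 it did not pass, at 0.28 and 0.31 (limma adjusted p = 0.0849 and 0.0735).

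The same transcript stood higher, not lower, in GMP with the duplication, although neither comparison alone passed. Flt3 was at 32.7, 14.8 and 13.5 FPKM in ITD GMP, against 4.54, 12.8 and 10.5 in WT GMP, and all ITD libraries lay above all WT libraries by a narrow margin. The log2 fold change was 1.04 ± 0.45 (limma adjusted p = 0.150), and 0.66 without ITD replicate 1 and 0.65 without WT replicate 1 (limma adjusted p = 0.396 and 0.350), with 0 of 4 members past the test, where 10.7% of 11249 genes were and 2 of the 4, Flt3 and Csf1r, had an unadjusted p under 0.05. In IRE1_KO_ITD GMP Flt3 was at 20.2, 25.5 and 28.5 FPKM, against 4.19, 13 and 10.1 in IRE1_KO GMP. These groups did not overlap, at 1.45 ± 0.45 (limma adjusted p = 0.0586), with 0 of 4 members and 13% of genes past the test, and an unadjusted p under 0.05 for Flt3 among the members. That value passed when only the 6 libraries compared were fitted (limma adjusted p = 0.0475) and without IRE1_KO replicate 2 (1.74, limma adjusted p = 0.0493). Over both backgrounds the 6 GMP libraries with ITD had a lowest, median and highest Flt3 level of 13.5, 22.8 and 32.7 FPKM, against 4.19, 10.3 and 13 in the 6 without it.

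Within WT and IRE1_KO GMP the replicates differed in Flt3 and in marker sums. The lowest Flt3 levels of these groups, 4.54 and 4.19 FPKM, were in replicate 1 of each, where the LSK-like markers summed to 137.5 and 131 FPKM and the 9 B cell markers to 85.6 and 94.6. In the other replicates of those groups the LSK-like sums were 153 to 191 and the B cell sums 162 to 341 FPKM. The erythroid markers of replicate 1 summed to 138 FPKM in WT and 465 in IRE1_KO, against 750.3 to 1129 in the other replicates, and the mast and basophil markers to 577 and 746, against 345 to 399. The LSK-like sum was also higher in GMP with ITD, at 210.3 to 258 FPKM, than in GMP without it, at 131 to 191, while the B cell sum was lower with ITD, at 43.7 to 57.6 FPKM, against 85.6 to 341. Within each GMP group with ITD the order of the LSK-like sum, over only 3 libraries, was the reverse of that of Flt3. In ITD GMP the sums of replicates 1 to 3 were 215, 226 and 257 FPKM, for Flt3 at 32.7, 14.8 and 13.5. In IRE1_KO_ITD GMP they were 258, 244 and 210 FPKM, for Flt3 at 20.2, 25.5 and 28.5. The mast and basophil sum was 133 to 280.4 FPKM with ITD and 345 to 746 without it, and the erythroid sum 23.2 to 190.1 with ITD and 138 to 1129 without it, where ITD replicate 2 and WT replicate 1 overlapped. The 12 dendritic markers summed to 93.1 to 163 FPKM in IRE1_KO_ITD GMP, 373 to 704 in ITD GMP, 133 to 162 in IRE1_KO GMP and 152 to 167 in WT GMP. In ITD against WT GMP 6 of 8 tested dendritic markers rose and 0 fell, where 7.37% of all genes rose and 3.32% fell. The part of such cells in the Flt3 difference was not tested.

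The ITD effect on Flt3 differed between the populations by a test of the difference itself. The effect in GMP minus the effect in LSK was 2.45 ± 0.48 log2 units (limma adjusted p = 0.00429), and Flt3 was the 1 of 4 members past this test, where 13.6% of genes were. The Flt3 level in GMP was 0.365 times that in LSK among ITD libraries and 0.0621 times among WT libraries, so the populations lay closer together with the duplication. The Ern1 deletion made no difference to Flt3 in GMP that could be called, at -0.04 ± 0.45 in IRE1_KO against WT and 0.37 ± 0.45 in IRE1_KO_ITD against ITD (95% intervals -1.03 to 0.95 and -0.62 to 1.36). In these comparisons limma called 0.533% and 1.83% of genes, and 0 of 4 members in each, with an unadjusted p under 0.05 for 0 and for 1 of them (Kit in IRE1_KO_ITD against ITD). The intervals are wide enough to hold changes as large as those seen in LSK.

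**Figure D2:**
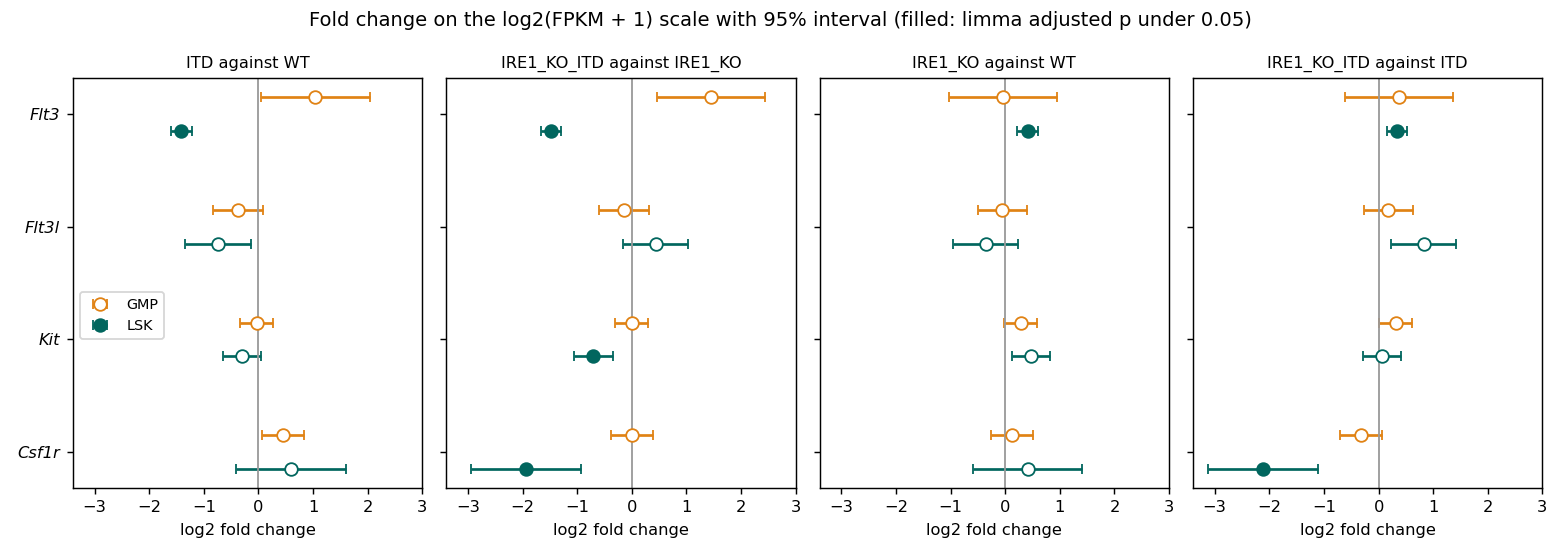
Log2 fold changes of the 4 genes (horizontal axis, log2(FPKM + 1) scale) with 95% intervals from limma in 4 comparisons, GMP above LSK for each gene; filled points passed an adjusted p of 0.05. Flt3 lies left of 0 in LSK and right of 0 in GMP where ITD libraries are set against those without ITD, and Csf1r lies furthest left in both LSK comparisons of IRE1_KO_ITD.

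Flt3l, the ligand gene, had no call between genotypes as fitted with all libraries, and 3 LSK comparisons passed under other settings. In ITD LSK it was at 9.58, 4.10 and 4.23 FPKM, against 9.90, 10.4 and 9.53 in WT LSK, so that replicate 1 lay among the WT values and the other replicates below every WT library. The log2 fold change was -0.74 ± 0.27 (limma adjusted p = 0.0737), and -1.08 without ITD replicate 1 (limma adjusted p = 0.00607). With all libraries kept it passed with a median-ratio size factor (-0.84, limma adjusted p = 0.0486) and with replicate number as a block (-0.74, limma adjusted p = 0.0345). In IRE1_KO_ITD LSK it was at 13.2, 9.58 and 9.42 FPKM, against the ITD values above, a difference of 0.82 ± 0.27 (limma adjusted p = 0.0550), of 1.17 without ITD replicate 1 (limma adjusted p = 0.00348) and of 0.82 with the block (limma adjusted p = 0.0262). In IRE1_KO LSK the values were 9.47, 5.49 and 8.21 FPKM, all below the WT libraries (-0.36 ± 0.27, limma adjusted p = 0.400). The effect of ITD with the Ern1 deletion minus that without it was 1.18 ± 0.38 (limma adjusted p = 0.0895), and 1.52 without that library (limma adjusted p = 0.00643).

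In GMP Flt3l was low in every genotype and the groups overlapped. It was at 3.52, 2.40 and 1.95 FPKM in IRE1_KO_ITD, 1.82, 2.11 and 2.57 in ITD, 2.83, 2.41 and 3.68 in IRE1_KO and 2.24, 3.30 and 3.91 in WT. The difference furthest from 0 was that of ITD against WT, at -0.38 ± 0.20 (limma adjusted p = 0.238). Set beside the receptor, the Flt3 to Flt3l ratio of FPKM was 6.78 ± 1.5 in IRE1_KO_ITD LSK, 10.9 ± 4.51 in ITD LSK, 27.7 ± 10.7 in IRE1_KO LSK and 15.1 ± 1.57 in WT LSK.

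Kit spanned 27.2 to 95.3 FPKM over the 24 libraries, a narrower range than that of Flt3 (4.19 to 219) or Csf1r (1.54 to 81.7). In LSK it was at 60.7, 51.1 and 46.1 FPKM in IRE1_KO_ITD, 45.5, 55.8 and 49.0 in ITD, 73.1, 90.5 and 95.3 in IRE1_KO and 60.9, 50.7 and 75.6 in WT. All IRE1_KO libraries but replicate 1 lay above every library of the other genotypes. Kit fell by 0.70 ± 0.16 in IRE1_KO_ITD against IRE1_KO LSK, with no overlap (limma adjusted p = 0.00694), and the IRE1_KO libraries there carry the 1ng tag. The other LSK differences did not pass, at -0.30 ± 0.16 in ITD against WT (-0.15 without WT replicate 3), 0.07 ± 0.16 in IRE1_KO_ITD against ITD and 0.47 ± 0.16 in IRE1_KO against WT (limma adjusted p = 0.204, 0.814 and 0.0546). The last of these passed without IRE1_KO replicate 1 (0.58) or without WT replicate 3 (0.62), and it rests on the libraries with the 1ng tag.

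In GMP Kit was at 42.4, 37.3 and 46.9 FPKM in IRE1_KO_ITD, 35.5, 27.2 and 39.1 in ITD, 43.2, 44.7 and 38.6 in IRE1_KO and 36.8, 34.5 and 32.0 in WT. The IRE1_KO libraries lay above the WT libraries without overlap, but the difference of 0.28 ± 0.14 did not pass (limma adjusted p = 0.440), nor did that of IRE1_KO_ITD against ITD (0.31 ± 0.14, limma adjusted p = 0.251). ITD against WT gave -0.03 ± 0.14 (95% interval -0.33 to 0.27, limma adjusted p = 0.889). The Flt3 to Kit ratio of FPKM was 1.37 ± 0.269 in IRE1_KO_ITD LSK and 1.12 ± 0.0846 in ITD LSK, against 2.33 ± 0.301 in IRE1_KO LSK and 2.45 ± 0.371 in WT LSK. In GMP this ratio was 0.590 ± 0.105 in IRE1_KO_ITD, 0.603 ± 0.293 in ITD, 0.217 ± 0.105 in IRE1_KO and 0.274 ± 0.132 in WT.

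Csf1r stood out in LSK that carried both alleles, where it was lower than in every other genotype. It was at 1.54, 2.10 and 3.70 FPKM in IRE1_KO_ITD LSK, against 5.10, 19.5 and 23.2 in ITD LSK. These groups did not overlap, though ITD replicate 1 lay nearer to the double mutants than to its own group, and Csf1r fell by 2.12 ± 0.45 log2 units (limma adjusted p = 0.0100), a mean of 0.154 times that of ITD. Without ITD replicate 1 the value was -2.74. Against IRE1_KO LSK, whose libraries carry the 1ng tag, at 15.7, 11 and 9.35 FPKM, Csf1r fell by 1.93 ± 0.45 (limma adjusted p = 0.00839), again with no overlap.

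Neither allele alone gave a call for Csf1r in LSK. ITD against WT, where WT was at 10.7, 6.32 and 9.29 FPKM, gave 0.59 ± 0.45 (limma adjusted p = 0.376) and IRE1_KO against WT gave 0.41 ± 0.45 (limma adjusted p = 0.583). Without ITD replicate 1 the first was 1.22 and passed (limma adjusted p = 0.0175). The difference between the ITD effects in LSK includes the IRE1_KO libraries with the 1ng tag. The ITD effect with the Ern1 deletion minus that without it was -2.53 ± 0.64 (limma adjusted p = 0.0414), and Csf1r was the 1 of 4 members past this test, where 6.94% of genes were. That call was narrow: it was lost without any 1 of 9 of the 12 LSK libraries, all but IRE1_KO_ITD replicate 3, ITD replicate 1 and IRE1_KO replicate 3 (-2.16 to -2.67), and with 5 other settings, sex as a covariate among them (-2.33, limma adjusted p = 0.191). Over all fits that left out 1 library or changed a setting, those that passed included, the value stayed negative, from -3.15 to -2.16.

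Marker lists of myeloid and dendritic cells also differed between LSK libraries. The 12 dendritic markers summed to 153, 144 and 159 FPKM in IRE1_KO_ITD, 263, 861 and 1038 in ITD, 230.1, 214 and 213 in IRE1_KO and 220.4, 205 and 209 in WT. The order of the ITD libraries is that of their Csf1r levels, with replicate 1 lowest. Of the dendritic markers tested, 7 of 9 fell in IRE1_KO_ITD against ITD LSK and 0 rose, where 6.96% of all genes fell and 13.3% rose. Siglech, which marks plasmacytoid dendritic cells, was listed at 0 in all 3 IRE1_KO_ITD libraries and Cd209a in 2 of them, while Clec9a, a marker of conventional dendritic cells, was at 0.586 to 3.64 FPKM in ITD and at no more than 0.114 in IRE1_KO_ITD. The 10 monocyte and macrophage markers summed to 239, 379.7 and 306 FPKM in IRE1_KO_ITD, 757, 532 and 579.8 in ITD, 908, 675 and 608 in IRE1_KO and 878, 629.9 and 603 in WT, so that ITD replicate 1, lowest of its group in Csf1r, was highest in this sum. Of these markers, 5 of 8 tested fell in IRE1_KO_ITD against ITD LSK and 0 rose. The 9 GMP-like markers summed to 1195, 1127 and 2149 FPKM in IRE1_KO_ITD, 1826, 3206 and 3525 in ITD, 3531, 2253 and 1884 in IRE1_KO and 3178, 1117 and 1455 in WT. Within ITD, IRE1_KO and WT LSK the order of this sum was that of Csf1r, and 1 of 9 GMP-like markers fell in IRE1_KO_ITD against ITD LSK and 0 rose. The part of such cells in the Csf1r result was not tested.

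**Figure D3:**
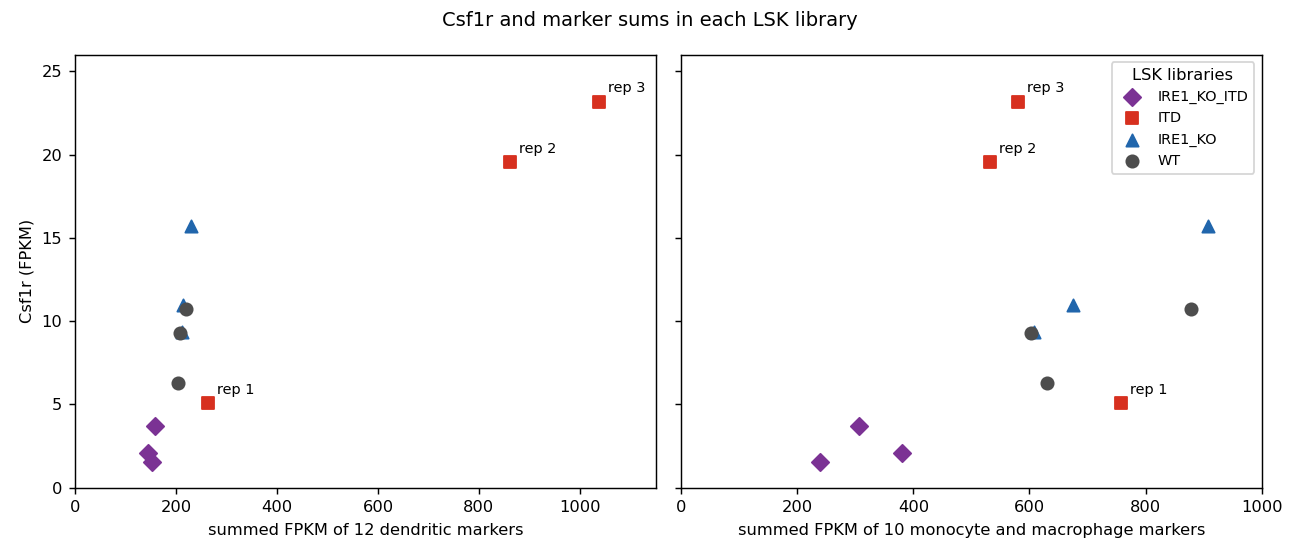
Csf1r (vertical axis, FPKM) against the summed FPKM of 12 dendritic markers (left) and 10 monocyte and macrophage markers (right) in the 12 LSK libraries, by genotype; each point is a library. The 3 IRE1_KO_ITD libraries lie lowest on every axis, and ITD replicates 2 and 3 lie apart with dendritic sums of 861 and 1038 FPKM.

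Csf1r lies on the plus strand of chromosome 18 from 61100598 to 61132149. Mir6983, listed at 0 in every library, and Hmgxb3 on the other strand, at 4.28 to 13.3 FPKM, overlap it. The sources used here do not say whether reads were counted by strand, so reads of Csf1r and Hmgxb3 in their shared stretch may not be told apart.

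In GMP, where CSF1R marks the monocytic arm of the lineage, Csf1r was high in every genotype. It was at 54.6, 56.9 and 42.1 FPKM in IRE1_KO_ITD, 52.2, 60.0 and 81.7 in ITD, 50.8, 59.8 and 42.8 in IRE1_KO and 46.3, 46.5 and 46.4 in WT. All ITD libraries lay above all WT libraries, at 0.44 ± 0.18, but the difference did not pass (limma adjusted p = 0.122) and was 0.27 without ITD replicate 3. The IRE1_KO_ITD and ITD libraries overlapped, at -0.32 ± 0.18 (limma adjusted p = 0.366). The difference between the ITD effects on Csf1r in GMP was -0.44 ± 0.25 (95% interval -0.99 to 0.11). In that comparison 0 of 4 members and 0 of 11249 genes (0%) passed in limma, and 1468 genes had an unadjusted p under 0.05. The gap between the LSK and GMP values of this difference was not tested. Csf1r in GMP was 20.9 times that in LSK among IRE1_KO_ITD means, 4.06 times among ITD, 4.26 times among IRE1_KO and 5.29 times among WT means.

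Ordered by mean level, Flt3 ran from IRE1_KO LSK through WT, IRE1_KO_ITD and ITD LSK to IRE1_KO_ITD, ITD, WT and IRE1_KO GMP. Among neighbours in this order the libraries overlapped only between the GMP of IRE1_KO_ITD and ITD and between those of WT and IRE1_KO. For Kit all neighbours overlapped but IRE1_KO and WT GMP, and for Csf1r those without overlap were WT GMP and ITD LSK, and WT LSK and IRE1_KO_ITD LSK. For Flt3l they were WT and IRE1_KO LSK, and ITD LSK and WT GMP.

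The genes around the receptors were taken as 5 lists of 107 genes in all, written from general knowledge, and are described by counts. In ITD against WT LSK, where 14.9% of all genes rose and 7.27% fell, 2 of 18 tested cytokine receptors rose and 7 fell: Csf2rb, the shared chain of the GM-CSF and IL-3 receptors, rose by 0.89 ± 0.10, and the erythropoietin receptor gene Epor fell by 2.12 ± 0.30. Of 18 transcription factors known to act on these loci 0 rose and 4 fell, among them Gata1 (-2.22 ± 0.28) and Lmo2 (-0.90 ± 0.14). Of 24 negative regulators 5 rose and 3 fell, led by Socs2 (3.95 ± 0.16) and Grb10 (-1.62 ± 0.17). Of 32 adaptors and kinases 2 rose and 2 fell, with the PI3 kinase genes Pik3cd (1.0 ± 0.23) and Pik3r5 (0.75 ± 0.19) higher, and of 4 other class III receptor kinases and ligands Pdgfrb rose by 0.61 ± 0.19 and Pdgfd fell by 1.27 ± 0.17. All named genes had a limma adjusted p of 0.0390 or lower. The median log2 fold change was -0.16 for the receptors and -0.34 for the transcription factors, against 0.08 for all genes. With a median-ratio size factor 5 of the 32 adaptors and kinases and 6 of the 18 transcription factors fell, and Pdgfrb did not pass (0.51, limma adjusted p = 0.0678). Without ITD replicate 1, 6 of the 32 adaptors and kinases rose and 2 fell, and 3 receptors rose and 6 fell.

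In IRE1_KO_ITD against IRE1_KO LSK, where 11.7% of all genes rose and 19.6% fell, 2 of 18 cytokine receptors rose and 7 fell, with Csf2rb at 1.14 ± 0.10 and Tek, the angiopoietin receptor of stem cells, at -1.75 ± 0.24. Of 32 adaptors and kinases 3 rose and 13 fell, with Grb2, which links receptors to RAS, at -1.47 ± 0.15. Of 24 negative regulators 2 rose and 4 fell, with Socs2 at 4.69 ± 0.16 and Cish at 3.28 ± 0.33, both targets of STAT5. Of 18 transcription factors 1 rose and 8 fell, with Gata1 at -2.57 ± 0.28 and Lmo2 at -1.27 ± 0.14, and of 4 class III genes 3 fell, with Pdgfd at -1.05 ± 0.17 and Csf1, the ligand gene of CSF1R, at -0.84 ± 0.16 (limma adjusted p = 0.00255 or lower for the named genes). The IRE1_KO libraries here are those with the 1ng tag.

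IRE1_KO against WT LSK rests on the same tagged libraries, and there 21.0% of all genes rose and 2.72% fell. Of 32 adaptors and kinases 14 rose and 1 fell, with Grb2 at 2.12 ± 0.15, and of 24 negative regulators 6 rose and 2 fell, with Socs1 at 1.99 ± 0.22 and Sh2b3 (LNK) at 2.01 ± 0.22. Of 18 transcription factors 8 rose and 1 fell, with Lyl1 at -1.37 ± 0.15 and Ldb1 at 1.18 ± 0.14, while of 18 receptors the chemokine receptor gene Cxcr4 fell by 1.09 ± 0.23 and 0 rose (limma adjusted p = 0.00529 or lower). Of 4 class III genes 0 passed, with an unadjusted p under 0.05 for 1. Over all genes, 2506 rose and 325 fell as deposited, 1538 and 858 with a median-ratio size factor and 1414 and 1138 with quantile normalization, where 10 and 8 of the 32 adaptors and kinases rose and 2 and 3 fell. In IRE1_KO_ITD against ITD LSK, where no library has the tag and 13.3% of all genes rose and 6.96% fell, 7 of 32 adaptors and kinases rose and 1 fell, with Grb2 at 0.90 ± 0.15 and Gab1 at 0.76 ± 0.13. Of 24 negative regulators 5 rose and 0 fell, with Socs1 at 1.43 ± 0.22 and Dok2 at 0.75 ± 0.17, and of 18 transcription factors 5 rose and 1 fell, with Gata2 at 0.97 ± 0.17 and Lmo2 at 0.64 ± 0.14. Of 18 receptors Tie1 rose by 1.32 ± 0.22 and Cxcr4 fell by 0.86 ± 0.23 (limma adjusted p = 0.0244 or lower for the named genes), and of 4 class III genes 0 passed, with an unadjusted p under 0.05 for 1.

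In the LSK difference between the ITD effects, where Csf1r passed and 1.36% of all genes were higher and 5.58% lower, 7 of 32 adaptors and kinases were lower and 0 higher, with Hras at -1.90 ± 0.27. Of 18 transcription factors 1 was higher and 2 lower, with Lyl1 at 1.40 ± 0.21 and Cebpb, a myeloid factor, at -2.20 ± 0.49, and of 24 negative regulators 1, Sh2b3, was lower at -1.17 ± 0.31 (limma adjusted p = 0.0497 or lower). With a median-ratio size factor Sh2b3 did not pass (-1.05, limma adjusted p = 0.104). Neither the 18 receptors nor the 4 class III genes had a call in limma, with an unadjusted p under 0.05 for 4 and 1 of them. The IRE1_KO libraries with the 1ng tag are part of this difference. In IRE1_KO against WT LSK, with the tag, Hras was at 2.36, Lyl1 at -1.37, Cebpb at 2.19 and Sh2b3 at 2.01. In IRE1_KO_ITD against ITD LSK, without it, they were at 0.46, 0.04, -0.01 and 0.83.

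Of all genes in GMP, 7.37% rose and 3.32% fell in ITD against WT, and 8.47% rose and 4.50% fell in IRE1_KO_ITD against IRE1_KO. In ITD against WT GMP 6 of 17 cytokine receptors rose and 3 fell, with Il6st, the gp130 chain, at 1.58 ± 0.20 and Epor at -1.22 ± 0.14. In IRE1_KO_ITD against IRE1_KO GMP 2 of 17 rose and 5 fell, with Il6st at 1.43 ± 0.20 and Epor at -1.27 ± 0.14. Of 24 negative regulators 4 rose and 3 fell in both comparisons, with Socs2 at 5.19 ± 0.34 and 5.44 ± 0.34 and Grb10 at -1.52 ± 0.21 and -1.83 ± 0.21. Of 31 adaptors and kinases 4 rose and 0 fell on the WT background, with Pik3cd at 0.59 ± 0.12 and Stat5b at 0.48 ± 0.13, and 1, Gab2, rose by 0.87 ± 0.19 on the other. Of 19 transcription factors 2 rose and 2 fell on the WT background, with Irf8, which directs monocyte and dendritic fates, at 1.30 ± 0.13 and Gata1 at -1.87 ± 0.23, and 4 rose and 2 fell on the other, with Gata1 at -2.54 ± 0.23 and Gata2 at -1.14 ± 0.16. Of the 2 class III genes tested Pdgfrb rose by 0.83 ± 0.22 and 0.96 ± 0.22, and Csf1 fell by 1.03 ± 0.25 on the Ern1-deleted background (limma adjusted p = 0.0389 or lower for all named). With quantile normalization Pdgfrb did not pass in ITD against WT GMP (0.66, limma adjusted p = 0.0542). These comparisons share no libraries, and the difference between them gave 0 calls in GMP.

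The Ern1 comparisons in GMP gave 0 calls in limma in all 5 lists, where 0.0267% of all genes rose and 0.507% fell in IRE1_KO against WT, and 0.916% rose and 0.916% fell in IRE1_KO_ITD against ITD. In IRE1_KO against WT GMP 9 of 31 adaptors and kinases, 3 of 24 negative regulators, 4 of 19 transcription factors and 1 of 17 receptors had an unadjusted p under 0.05, and in IRE1_KO_ITD against ITD GMP these numbers were 4, 2, 2 and 4. In IRE1_KO_ITD against ITD GMP 7 of 8 tested dendritic markers fell. Of the 4 members 0 fell there, where 0.916% of all genes did. Csf1r was lower without a call, at -0.32 ± 0.18 (limma adjusted p = 0.366). Flt3, Flt3l and Kit were higher without a call, at 0.37 ± 0.45, 0.18 ± 0.20 and 0.31 ± 0.14. The part of dendritic cells in the levels of the members was not tested.

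**Figure D4:**
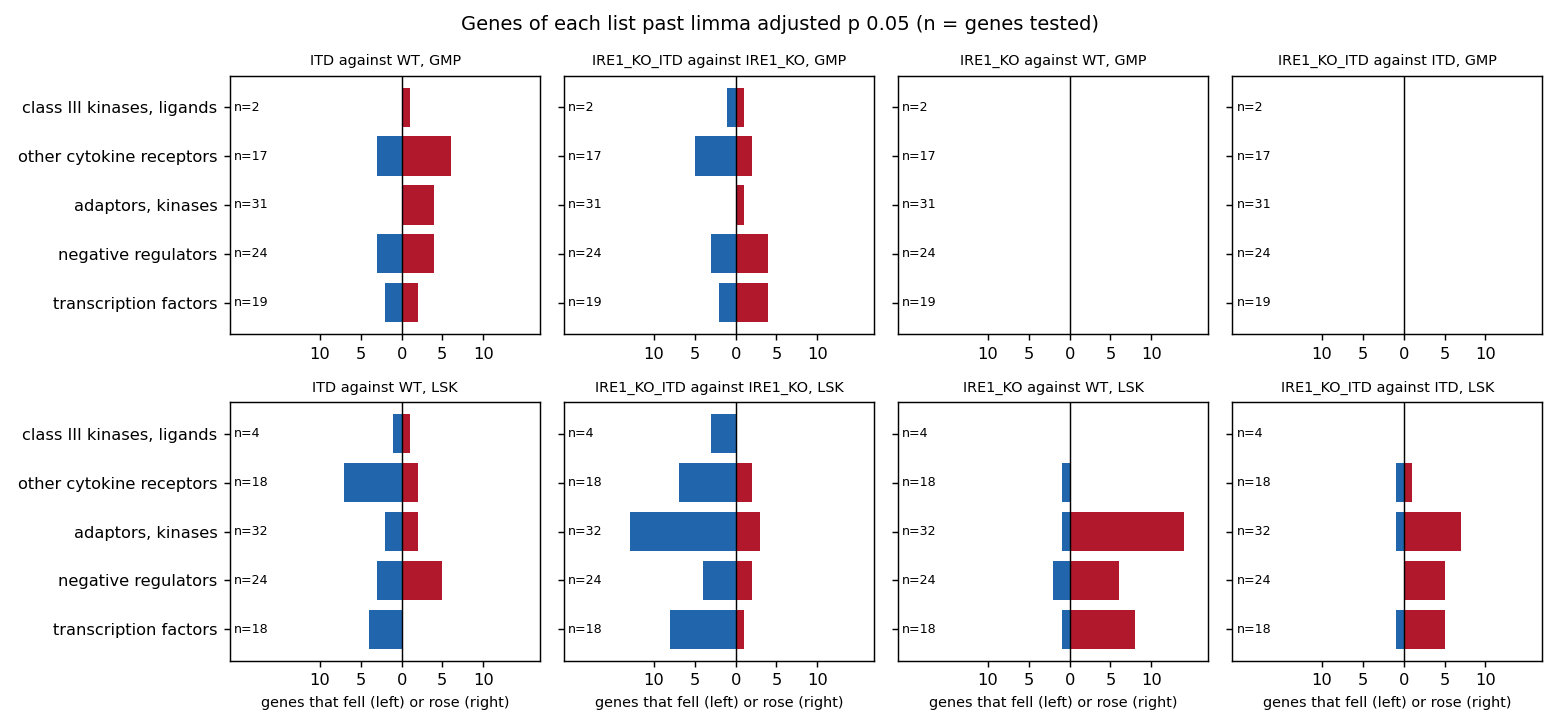
Number of genes of each of 5 lists that fell (left of 0) or rose (right of 0) at a limma adjusted p under 0.05, in 4 comparisons in GMP (top) and LSK (bottom), with n the genes tested. Bars are longest for adaptors and kinases in LSK, with 13 that fell in IRE1_KO_ITD against IRE1_KO and 14 that rose in IRE1_KO against WT.

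In WT GMP against WT LSK, where 19.0% of all genes were higher and 31.3% lower, 4 of 18 cytokine receptors were higher and 8 lower, with Ifngr1 at 1.89 ± 0.12. Of 19 transcription factors 5 were higher and 10 lower, with the stem cell factors Meis1 at -3.58 ± 0.18 and Hoxa9 at -2.71 ± 0.19, and of 24 negative regulators 3 were higher and 14 lower, with Sla2 at -3.34 ± 0.18 and Dok2 at -2.75 ± 0.18. Of 32 adaptors and kinases 6 were higher and 13 lower, with Gab1 at -1.36 ± 0.13 and Pik3r1 at -1.05 ± 0.13, and of 4 class III genes Pdgfd (-1.25 ± 0.14) and Pdgfrb (-1.42 ± 0.21) were lower (limma adjusted p = 1.74e-05 or lower). All genes had a median of -0.11 here, and close to 0 with either scaling (0.00257 and 0.00832), where 8 and 5 of the 32 adaptors and kinases were higher and 11 and 10 lower.

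In the difference of ITD effects, GMP minus LSK, where Flt3 passed and 6.45% of all genes were higher and 7.10% lower, 5 of 19 transcription factors were higher and 0 lower, with Lmo2 at 1.16 ± 0.27 and Hoxa9 at 1.08 ± 0.27. Of 18 receptors 3 were higher and 1 lower, with Crlf2 at 0.75 ± 0.19 and Tek at 1.06 ± 0.27. Of 32 adaptors and kinases 3 were higher, with Fyn at 1.75 ± 0.39 and Stat5b at 0.82 ± 0.19, of 24 negative regulators 3, with Spry2 at 1.19 ± 0.32 and Sh2b3 at 1.53 ± 0.48, and of 4 class III genes 1, Pdgfd, at 1.18 ± 0.20 (limma adjusted p = 0.0417 or lower for the named genes).

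The genes whose levels ran most like those of each member were ranked by Pearson r of log2(FPKM + 1), as a description in which libraries of a group are not independent and the split between LSK and GMP weighs on all of them. Over the 24 libraries Flt3 was closest to the ETS family gene Elk3 (0.973), Cyp2j9 (0.969) and Trp53i13 (0.967). Elk3 ran from 3.49 to 20.2 FPKM. Within the 12 LSK libraries Flt3 was closest to the B cell adaptor gene Bank1 (0.980), Ptgs1 (0.972) and Tcp11l2 (0.971), and within the 12 GMP libraries to Afap1l1 (0.939), the long non-coding RNA Pvt1 (0.924) and Elk3 (0.918). Bank1 was low in LSK, at 0.126 to 3.95 FPKM, and Pvt1 in GMP, at 0.425 to 2.23. Csf1r was closest to Pyhin1 (0.990), Ly86 (0.978) and BC094916 (0.976) over all libraries. In LSK the genes closest to it included Pyhin1 (0.983) and Tyrobp (0.965), a signalling adaptor gene of myeloid cells, and in GMP it was closest to Ptpro (0.896), Pira2 (0.895) and Slc9a9 (0.880). Ptpro and Pira2 were low in GMP, at 1.05 to 4.32 and 0.48 to 2.23 FPKM. Ly86 is also in the monocyte list used above.

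For Kit the closest genes over all libraries were Rictor (0.929), Clic5 (0.923) and Maf1 (0.922), in LSK Pls3 (0.987), Sh3d19 (0.968) and Slu7 (0.933), and in GMP Trappc12 (0.965), Tm9sf4 (0.942) and Mfn2 (0.912). Flt3l was closest to 4930486L24Rik (0.969), Art4 (0.958) and Pdcd1lg2 (0.955) over all libraries, to Hsd3b7 (0.949), 4930486L24Rik (0.932) and Plscr1 (0.922) in LSK, and to 4732471J01Rik (0.892), Mir8096 (0.891) and Hvcn1 (0.879) in GMP, where its level was low. Low genes among these included Clic5, at 0.0289 to 2.62 FPKM, and Pdcd1lg2, at 0 to 1.96, over all libraries. They also included Sh3d19 in LSK, at 0.330 to 1.28 FPKM, and 4732471J01Rik and Mir8096 in GMP, at 0.64 to 1.355 and 0 to 5.73. None of the genes named here was among the 3 closest of more than 1 member.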

How the data were processed

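Expression was measured by RNA sequencing in 24 libraries, 12 of LSK and 12 of GMP cells. The authors deposited FPKM values per gene symbol for each library. Per the submitters' processing notes, STAR, Cufflinks and the mm10 build were used, without versions. Per the labels' protocols the libraries were made with SMART-Seq v4 and Nextera XT, while the series text names a stranded TruSeq kit, and this was not settled. Read totals were not used here; relative depth came from ratios of values under 0.3 FPKM that were whole-number ratios up to 6 within a tolerance of 0.005 (39.2% to 48.3% of genes).

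Limma 3.58.1 (R 4.3.3) fitted log2(FPKM + 1) by a moderated test with a mean-variance trend, over the 12 libraries of a population, or all 24 for comparisons across populations. Genes at 1 FPKM or more in at least 3 libraries were tested, and p was adjusted by Benjamini-Hochberg within a comparison, with a threshold of 0.05. Figures and tables used Python 3.11.15, pandas 2.3.3 and matplotlib 3.10.9. On simulated data built from the libraries for ITD against WT LSK, 84% of changes of 1 log2 unit and 96% of changes of 2 were recovered, and 10 unchanged genes were called, of 11730 genes in all. In every comparison the changes were put only into genes above a floor of mean level. Recovery for lower genes was therefore not measured, among them Flt3l in GMP, at 1.82 to 3.91 FPKM. Recovery of changes of 1 log2 unit was 83% to 89% in the other comparisons within LSK and in GMP against LSK in WT, 73% to 81% in the comparisons within GMP, 67% for the difference of ITD effects in LSK and for the ITD effect in GMP minus LSK, and 59% for the difference of ITD effects in GMP.

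The members, lists and tests were chosen with earlier results of these data known. Named genes were the 4 members, from each pathway list up to 2 called genes with the smallest p in a comparison, the 3 genes closest to each member by Pearson r, and Ern1 and Socs2 as checks, and a few that this rule would name are not reported here; marker genes named beside Csf1r were chosen after their values were seen. Marker lists were also kept for GMP-like, lymphoid-primed, mast and basophil, and erythroid cells. Of 10 lymphoid-primed and 11 monocyte markers, 9 and 10 were in the files. Over the LSK libraries the mast and basophil markers summed to 27.3 to 70.4 FPKM. Alternatives were leaving out each library, fitting only the libraries compared, a pseudocount of 0.1, dropping the filter, quantile or median-ratio scaling, and a term for replicate number or for sex. Counts of list genes without ITD LSK replicate 1 and under both scalings were added after the data were seen.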

Additional observations from a re-analysis of the deposited data

Results flagged for a closer look

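The ITD effect on Csf1r in LSK differed with the Ern1 deletion by a direct test of that difference. The effect with the deletion minus that without it was -2.53 ± 0.64 log2 units (limma adjusted p = 0.0414), and Csf1r was lower in all 3 IRE1_KO_ITD libraries than in all 9 other LSK libraries. The test includes the 3 IRE1_KO libraries with the 1ng tag, so genotype and tag cannot be told apart in it. The call was lost without any 1 of 9 of the 12 libraries and with 5 other settings, sex as a covariate among them (-2.33, limma adjusted p = 0.191), and sums of dendritic and of monocyte and macrophage markers were also lowest in IRE1_KO_ITD LSK. The ITD effect on Flt3 differed between populations, also by a direct test. The effect in GMP minus that in LSK was 2.45 ± 0.48 log2 units (limma adjusted p = 0.00429), with Flt3 higher in all 3 ITD than in all 3 WT GMP libraries and lower in all 3 ITD than in all 3 WT LSK libraries.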

How the results depend on the processing

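Of the 48 results on the 4 genes, 13 passed the test, and none of these 13 changed sign in 90 fits that left out 1 library or in 96 other alternatives. Flt3 in IRE1_KO against WT LSK did not pass with a median-ratio size factor (0.21). The difference of ITD effects on Csf1r in LSK did not pass without the filter (-2.53), with the replicate block (-2.53), sex (-2.33), a median-ratio size factor (-2.39) or quantile normalization (-2.30), nor without any 1 of 9 libraries (-2.67 to -2.16). Over all 12 fits that left out 1 library it ran from -3.15 to -2.16, and the value furthest from 0, without ITD replicate 1, passed. Flt3l passed in ITD against WT LSK with a median-ratio size factor (-0.84) and with the replicate block (-0.74), and in IRE1_KO_ITD against ITD LSK with the block (0.82). Flt3 in IRE1_KO_ITD against IRE1_KO GMP passed in a fit of only the libraries compared (1.45). Values close to 0 changed sign: the difference of ITD effects on Flt3 in LSK with quantile normalization (0.0386) and a median-ratio size factor (0.0697), Csf1r in IRE1_KO_ITD against IRE1_KO GMP with the same settings (-0.0501 and -0.0957), and with sex Kit in ITD against WT GMP (0.00313), Flt3l in IRE1_KO against WT GMP (0.00635) and the difference of ITD effects on Kit in GMP (-0.0243). The cause was not tested for any of these.

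Leaving out 1 library at a time gave these ranges. In LSK they were -1.08 to -0.56 for Flt3l, -0.43 to -0.15 for Kit and 0.22 to 1.22 for Csf1r in ITD against WT, 0.33 to 0.62 for Kit in IRE1_KO against WT, 0.28 to 0.38 for Flt3, 0.64 to 1.17 for Flt3l and -0.039 to 0.155 for Kit in IRE1_KO_ITD against ITD, and 0.98 to 1.52 for the difference of ITD effects on Flt3l. In GMP they were 0.65 to 1.30 for Flt3, -0.14 to 0.11 for Kit and 0.27 to 0.58 for Csf1r in ITD against WT, -0.43 to 0.38 for Flt3 and -0.223 to 0.0779 for Flt3l in IRE1_KO against WT, and 1.03 to 1.74 for Flt3, -0.0802 to 0.0808 for Kit and -0.12 to 0.14 for Csf1r in IRE1_KO_ITD against IRE1_KO. The difference of ITD effects in GMP ran from -0.014 to 0.803 for Flt3 and -0.115 to 0.138 for Kit, and the ITD effect on Csf1r in GMP minus LSK from -0.77 to 0.22.

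Scaling moved the split of calls, given here as higher and lower with FPKM as deposited and then with a median-ratio size factor. It was 1781 and 869, then 1197 and 1236, in ITD against WT LSK, 1586 and 832, then 1340 and 1111, in IRE1_KO_ITD against ITD LSK, and 163 and 667, then 215 and 322, for the difference of ITD effects in LSK. In IRE1_KO_ITD against IRE1_KO LSK it was 1399 and 2340, then 2027 and 1875 with quantile normalization. In GMP it was 829 and 374, then 887 and 842, in ITD against WT, 953 and 506, then 714 and 731, in IRE1_KO_ITD against IRE1_KO, and 103 and 103, then 81 and 153, in IRE1_KO_ITD against ITD. In WT GMP against WT LSK it was 2341 and 3871, then 3247 and 3264.

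Counts of genes called moved more. ITD against WT LSK had 2650, with 1384 for sex, 1689 for only the libraries compared and 1282 to 2599 without 1 library. IRE1_KO_ITD against ITD LSK had 2418 and 1177 to 2342 without 1 library. The difference of ITD effects in LSK had 830, with 537 for a median-ratio size factor, 82 for sex and 343 to 1549 without 1 library. ITD against WT GMP had 1203, with 783 for the replicate block, 271 for sex, 509 for only the libraries compared and 384 to 1609 without 1 library. IRE1_KO against WT GMP had 60, with 94 for a median-ratio size factor, 35 for the block, 39 for sex and 27 to 45 without 1 library. IRE1_KO_ITD against ITD GMP had 206, with 130 for a pseudocount of 0.1, 62 for the block, 15 for sex, 12 for only the libraries compared and 13 to 759 without 1 library. IRE1_KO_ITD against IRE1_KO GMP had 1459 and 708 to 1176 without 1 library. The difference of ITD effects in GMP had 0, with 3 without the filter and 0 to 91 without 1 library. The ITD effect in GMP minus LSK had 1674, with 908 for only the libraries compared and 791 to 1849 without 1 library.

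Same-numbered libraries of different genotypes had correlations of deviations from -0.338 to 0.103 in 36 pairs, and same-numbered GMP and LSK libraries of a genotype from -0.1 to 0.236 in 12 pairs, so neither were treated as paired; the block changed the calls and counts named here. Sex overlaps with ITD, whose libraries were all female.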
